A study of Mus musculus with 46 samples.

Results

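The 9 genes described here are the output and stabilizing loop factors of the mouse circadian clock: the nuclear receptor repressors Nr1d1 and Nr1d2, the PAR bZIP activators Dbp, Tef and Hlf, their competitor Nfil3, the bHLH repressors Bhlhe40 and Bhlhe41, and the ubiquitin protease Usp2. They were taken by name from the 55774 rows of each of 3 score tables and the 56775 rows of 1 count table, and all 9 were listed in every table. The study depleted or deleted the long noncoding RNA Falcor, listed as 9030622O22Rik, and measured RNA by strand-specific sequencing after removal of ribosomal RNA in 46 libraries. The livers came from mice labelled Falcor KO on the NCD diet (n = 4) with NCD Ctrl mice (n = 4), and from Falcor KO mice on the HFD diet (n = 6) with HFD Ctrl mice (n = 5). The labels do not spell out the diets, and give no age, sex, strain, time of day or design of the deleted allele. AML12, a mouse hepatocyte line, carried a doxycycline-inducible hairpin against Falcor (shLinc) or its control hairpin (shCtrl) in 3 states, each with n = 3: without doxycycline (NoDox), with doxycycline added (DoxPlus), and the state labelled DoxMinus and Restored. A separate AML12 set carried conventional hairpins against Falcor (shFalcor), Zc3h11a (shZC3H11A) or a control (shCtrl), again with n = 3 each. Nothing in the labels says whether replicates were separate cultures, clones or litters, so each p-value reflects the spread among libraries and may be partly technical.

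In the clock, the CLOCK and ARNTL activators bind E-boxes and switch on their own repressors, the PER and CRY proteins. In the stabilizing loop, REV-ERB alpha and beta, made from Nr1d1 and Nr1d2, repress Arntl. DBP, TEF and HLF activate genes through D-boxes, where NFIL3 represses, and in liver they are known for driving genes of xenobiotic and lipid metabolism at set times of day. BHLHE40 and BHLHE41 compete for E-boxes, and USP2 removes ubiquitin from clock proteins. Because these transcripts cycle strongly in liver, their level in a tissue depends on the hour of collection, which the labels do not give.

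The short promoter stretches that carried a clock motif are shown to place the members in this scheme. RefSeq windows running from 250 bases before to 50 bases after a start site (GRCm38) were at hand for 8 of the 9 genes, in 9 windows, with none for Bhlhe40. The E-box CACGTG was found in 3 of the 9 member windows and in 7.15% of 32851 windows of all genes. The member windows with it were both windows of Tef and the window of Bhlhe41, so they stand for 2 genes. The half-site AGGTCA, searched on both strands, was found in 2 of the 9 and in 16.3% of all. The D-box TTATGNAA, searched on both strands, was found in 0 of the 9 and in 3.38% of all, and no match overlapped another in these windows. Each sequence runs 5′ to 3′ along the gene's strand with the match in capitals, in stretches cut shorter where an annotated exon overlaps.
Tef, first window, chr15:81802534-81802563, plus strand, match at -127 from the start site: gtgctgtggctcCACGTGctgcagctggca
Tef, second window, chr15:81811249-81811308, plus strand, match at -138: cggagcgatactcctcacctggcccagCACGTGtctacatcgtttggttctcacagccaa
Bhlhe41, chr6:145865556-145865585, minus strand, match at -153: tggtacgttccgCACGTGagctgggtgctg
Nr1d2, chr14:18239151-18239210, minus strand, match at -77: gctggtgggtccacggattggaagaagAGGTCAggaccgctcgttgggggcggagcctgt
Nfil3, chr13:52981040-52981063, minus strand, match at -12, on the opposite strand: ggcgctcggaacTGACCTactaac
A match describes these letters only and is not evidence of binding.

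On the same build, GENCODE places Nr1d1 at chr11:98767932-98775333 on the minus strand, Dbp at chr7:45705088-45710203 on the plus strand and Usp2 at chr9:44067021-44095627 on the plus strand. Nr1d1 shares 1075 bases at its 3′ end with Thra on the opposite strand, Dbp shares 737 bases with Sphk2, and Usp2 lies wholly within Gm49380. Tef, Bhlhe40 and Bhlhe41 also overlap opposite-strand transcripts. No source used here gives the strand setting of the authors' counting. Whether reads from the shared stretches were counted for the right gene is therefore not known.

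Falcor checked the labels: it was listed at 0 in all 4 NCD and all 6 HFD KO livers, against 79.7 to 141 in NCD Ctrl livers and 17.2 to 30.0 in HFD Ctrl livers on the rescaled scale. In the inducible cells shLinc libraries had 2.10 to 3.14 in DoxPlus, against 4.20 to 5.26 in shCtrl. Without doxycycline the order was the other way round, with 8.02 to 11.1 in shLinc and 4.38 to 6.01 in shCtrl libraries, and again in DoxMinus, with 8.44 to 10.2 in shLinc and 4.17 to 5.19 in shCtrl. Both conventional hairpins had less Falcor than their control, at 0.842 ± 0.295 CPM in shFalcor, 0.770 ± 0.282 in shZC3H11A and 3.44 ± 1.29 in shCtrl cells (SD, n = 3 each). Zc3h11a was at 37.5 ± 4.52 CPM in shFalcor, 8.24 ± 5.15 in shZC3H11A and 63.6 ± 4.36 in shCtrl cells. The count table held 4474760 to 8837581 reads per library. The score tables summed to 833910 to 975752 per library and keep no read depth.

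In NCD livers, 5 members rose in Falcor KO: Nr1d2, the PAR bZIP trio Dbp, Tef and Hlf, and Bhlhe40. Their increases ran from 0.45 to 1.07 in log2(value + 1), a scale that compresses fold changes of weakly expressed genes, and no member fell. Nr1d1 and Usp2 had higher means in KO livers without passing the test, and Nfil3, which opposes the PAR bZIP activators, had a slightly lower mean. Of 9426 genes tested by limma on rescaled values, 6.05% passed at an adjusted p of 0.05, with 4.20% higher and 1.85% lower. Of the 8 members that passed the filter on low values, 5 were higher and 0 lower, and their median log2 change was 0.72, against 0.03 over all genes.

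Dbp, which activates D-box genes, showed the widest step among the called members. Its rescaled values were 76.8, 59.9, 69.5 and 72.1 in NCD KO livers, against 25.0, 54.5, 30.9 and 26.2 in NCD Ctrl livers. Every KO liver lay above every Ctrl liver, with the Ctrl liver of column Ctrl-3 closest to the lowest KO liver. The log2 change was 1.07 ± 0.23 (SE; adjusted p = 0.0419, limma). Tef, its PAR bZIP partner, stood at 57.8, 52.0, 46.9 and 56.8 in KO livers, against 28.5, 40.1, 34.1 and 32.5 in Ctrl livers. The Tef groups did not overlap, and its log2 change was 0.65 ± 0.11 (adjusted p = 0.0320). Hlf, the third PAR bZIP gene, was low in both groups and separated cleanly, with 7.97, 6.87, 7.82 and 8.11 in KO livers, against 5.69, 5.14, 5.33 and 5.24 in Ctrl livers. Its log2 change was 0.45 ± 0.08 (adjusted p = 0.0345). The deposited Hlf values are whole numbers from 7 to 9 in KO and 5 in all 4 Ctrl livers, so each step is coarse.

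Of the REV-ERB pair Nr1d2 passed the test and Nr1d1 did not, and the difference between them was not tested. Nr1d2 read 27.9, 23.6, 26.1 and 35.1 in NCD KO livers, against 11.4, 18.5, 13.9 and 17.8 in NCD Ctrl livers, with no overlap. Its log2 change was 0.84 ± 0.17 (adjusted p = 0.0388). Nr1d1 read 42.9, 50.04, 63.4 and 46.9 in KO livers, against 45.5, 29.8, 29.8 and 32.5 in Ctrl livers. One Ctrl liver, in column Ctrl-2, sat inside the KO range, and the log2 change of 0.56 ± 0.16 did not pass (adjusted p = 0.0698).

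Bhlhe40, an E-box repressor, read 37.9, 59.9, 65.2 and 49.6 in NCD KO livers, against 31.9, 38.0, 25.6 and 25.2 in NCD Ctrl livers. The lowest KO liver and the highest Ctrl liver met at nearly the same value, and the log2 change was 0.79 ± 0.19 (adjusted p = 0.0487). Usp2 read 18.9, 15.7, 12.2 and 18.9 in KO livers, against 6.83, 13.4, 4.26 and 3.14 in Ctrl livers. Its log2 change of 1.29 was the largest among the 8 tested members and also the least precise, with an SE of 0.36 and an adjusted p of 0.0666. Nfil3 averaged 11.7 ± 0.968 in KO livers and 14.0 ± 4.56 in Ctrl livers (SD, n = 4 each), a log2 difference of -0.19 with a 95% interval of -0.67 to 0.30. Bhlhe41 was deposited at 1 or 2 in KO livers and at 0 or 1 in Ctrl livers and was not tested. The groups of 4 members (Nr1d2, Dbp, Tef and Hlf) did not overlap, where 13.4% of all genes tested had groups that did not overlap.

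These NCD calls sit near the threshold. When each of the 8 libraries was left out in turn, the number of members called ranged from 0 to 4, and the count over all genes fell to between 6 and 32 for 7 of the 8 libraries. Leaving out Ctrl replicate 4 raised it to 1707 genes and kept 4 members, all but Bhlhe40 (log2 change 0.70, adjusted p = 0.0569). Without the Ctrl-3 column only Dbp was called, and without Ctrl-2, Ctrl replicate 3 or any 1 of the 4 KO replicates no member was. With no filter on low values 3 were called, with Dbp at 0.0504 and Bhlhe40 at 0.0673, and Bhlhe40 was also lost (0.0543) when the scaling ignored the repeated rows. The sizes held their direction when single libraries were left out: Dbp ranged from 0.95 to 1.31, Nr1d2 from 0.71 to 0.93, Tef from 0.57 to 0.73, Hlf from 0.42 to 0.49 and Bhlhe40 from 0.65 to 0.92. Of the calls over all genes 69.5% were higher, against 94.9% with no rescaling between libraries, where the median of all genes shifted to 0.21 and Nr1d1 (0.74) and Usp2 (1.46) also passed. A pair of rows that repeat each other took 20.3% to 23.8% of the column total in KO livers and 25.0% to 38.2% in Ctrl livers. Beyond the fit whose scaling ignored these rows, their part in the result was not tested.

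**Figure D1:**
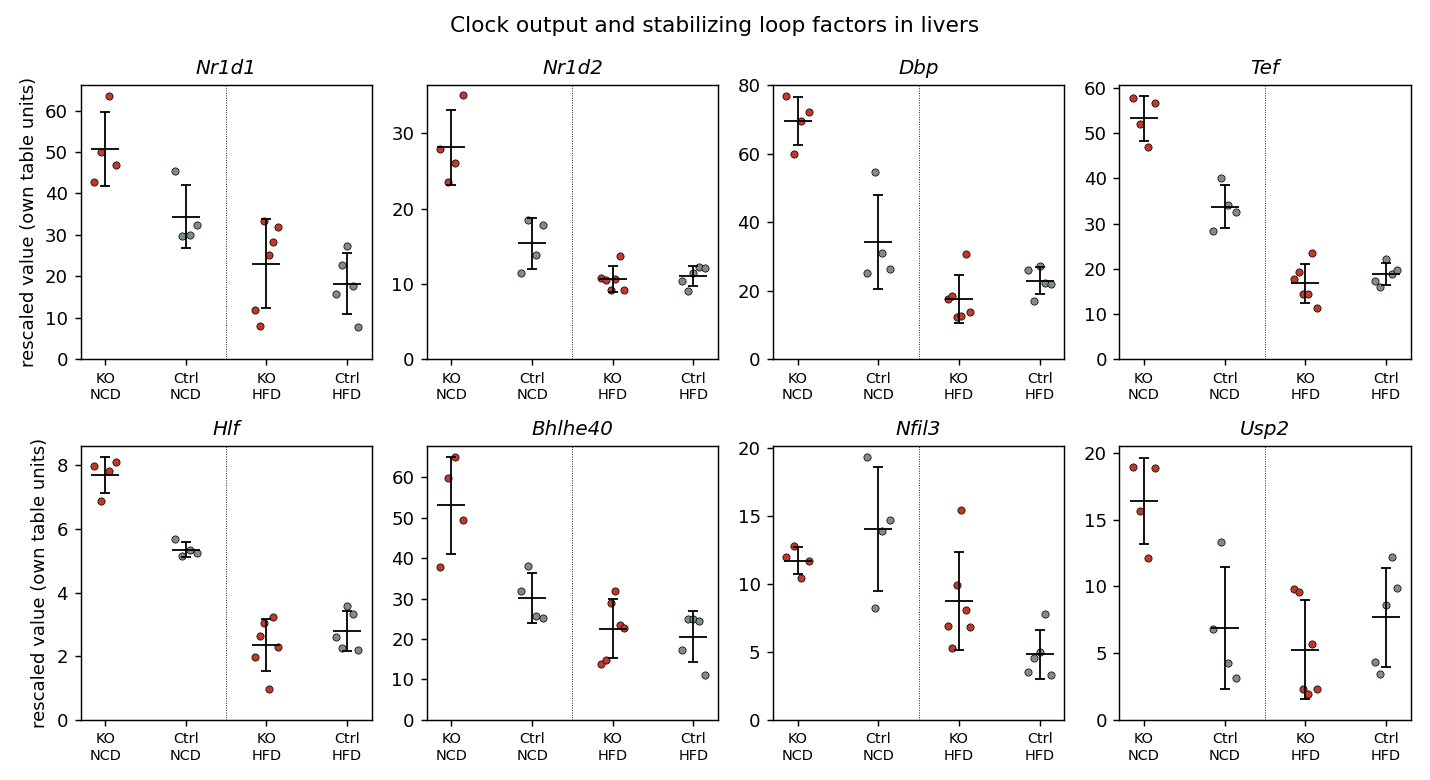
Rescaled values (vertical axes, each table in its own units) of 8 members in every KO (red) and Ctrl (grey) liver on NCD, left of the dotted line, and HFD, right of it. Points are libraries and bars give mean ± SD. On NCD the KO means of Dbp and Tef were 69.5 and 53.4, against Ctrl means of 34.2 and 33.8, and on HFD the groups of every member overlap.

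In HFD livers no member passed the test. Of 5913 genes tested by limma, 3 passed (0.0507%; 0.0338% higher and 0.0169% lower), with 749 genes and 1 member, Nfil3, at an unadjusted p under 0.05. The median log2 change of the 7 tested members was -0.05, against 0.02 over all genes. With no rescaling, 29 genes passed, 13 of them higher, and when the scaling ignored the repeated rows 21 passed, 5 of them higher, where 2 of the 3 had been higher in the reported fit.

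Dbp had a lowest, median and highest value of 12.2, 15.7 and 30.8 in HFD KO livers (n = 6), against 17.03, 22.2 and 27.2 in HFD Ctrl livers (n = 5). Its log2 change was -0.42 with a 95% interval of -0.90 to 0.06, so that an increase of the size seen on NCD lay outside the interval. Tef read 11.4, 16.1 and 23.5 in KO livers, against 15.9, 18.9 and 22.2 in Ctrl livers, with an interval of -0.53 to 0.16. Nr1d2 read 9.12, 10.5 and 13.8 in KO livers, against 9.09, 11.5 and 12.2 in Ctrl livers, with an interval of -0.30 to 0.19. For these 3 genes the KO and Ctrl ranges overlapped over most of their length.

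Nr1d1 was widely spread on HFD in both genotypes, at 7.86, 26.7 and 33.4 in KO livers and 7.70, 17.8 and 27.2 in Ctrl livers, giving a log2 change of 0.27 ± 0.41. Bhlhe40 averaged 22.6 ± 7.26 in KO livers (SD, n = 6) and 20.6 ± 6.25 in Ctrl livers (SD, n = 5), with a log2 change of 0.13 ± 0.27. Usp2 read 1.93, 3.97 and 9.82 in KO livers and 3.41, 8.59 and 12.2 in Ctrl livers, with a log2 change of -0.57 ± 0.44. None of these 3 separated KO from Ctrl, and only 0.0338% of all genes tested had groups that did not overlap.

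Nfil3, the repressor of D-box genes, had the largest positive log2 change of the 7 members tested on HFD, at 5.24, 7.48 and 15.4 in KO livers and 3.299, 4.54 and 7.77 in Ctrl livers. Its log2 change of 0.72 ± 0.25 had an unadjusted p of 0.0150 and an adjusted p of 0.267 (limma), and did not pass. Hlf missed the filter on low values, with rescaled values of 0.964 to 3.24 in KO livers and 2.20 to 3.58 in Ctrl livers. Bhlhe41 was deposited at 0 or 1 in every HFD liver. HFD KO replicate 6 stood apart from the other livers, since 3 rows that repeat each other took 78.2% of its column, against 22.4% to 56.8% elsewhere. No member was called with it or any other HFD library left out.

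The knockout effect differed between the diets for Nr1d2, Dbp and Tef, each lower on HFD than on NCD. The difference of the HFD effect minus the NCD effect was -1.49 ± 0.32 for Dbp (adjusted p = 0.0175), -0.89 ± 0.20 for Nr1d2 (adjusted p = 0.0241) and -0.83 ± 0.20 for Tef (adjusted p = 0.0217), each from the limma estimates of the separate tables. Of 5863 genes tested in both, 7.88% passed, with 2.87% higher and 5.01% lower on HFD. Of 7 members tested, 0 were higher and 3 lower, with a median difference of -0.83 against -0.04 over all genes. Usp2 differed by -1.86 ± 0.57 without passing (adjusted p = 0.0513), and Nfil3 by 0.91 ± 0.33 in the other direction (adjusted p = 0.0801). Bhlhe40 differed by -0.66 ± 0.33 and Nr1d1 by -0.29 ± 0.45, neither past the threshold.

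Without NCD Ctrl replicate 3 none of the 3 calls was kept, with adjusted p-values of 0.0524 for Dbp, 0.0679 for Nr1d2 and 0.0574 for Tef. Without NCD KO replicate 1 or 4 only the Dbp call was kept, with Nr1d2 at 0.0598 and 0.0736 and Tef at 0.0587 and 0.0547. Usp2 passed without the HFD Ctrl-2 column, HFD KO replicate 1 or 2, or the NCD Ctrl-3 column, at adjusted p-values from 0.0386 to 0.0478. With no rescaling Nr1d2 (adjusted p = 0.164) and Tef (0.161) did not pass and Usp2 did (0.0350). The share of higher calls over all genes was 36.4%, against 13.7% with no rescaling, where the median of all genes shifted to -0.28, and 20.8% with scaling that ignored the repeated rows. The diets were held in separate tables normalized separately, so diet and table cannot be told apart. Falcor, at 0 in every KO liver on both diets, was itself called in this difference (2.28 ± 0.21, adjusted p = 1.13e-05, limma estimates). Its Ctrl means were 116 on NCD and 23.1 on HFD, so the level of a gene in each table also enters the difference.

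Genes of the core loop and other clock outputs were read in the same livers. Of 6 core loop genes tested on NCD, 1 was higher in KO and 0 lower, with a median log2 change of 0.42, and 6.05% of all genes passed there. It was Per1, an E-box-driven repressor, at a mean of 11.3 in KO livers and 3.46 in Ctrl livers (log2 change 1.49 ± 0.21, adjusted p = 0.0310, limma). Cry2, which acts with the PER proteins, had a log2 difference of 0.37 ± 0.09 and missed the threshold (adjusted p = 0.0505). Arntl, the target that Nr1d1 and Nr1d2 repress, was below the filter, deposited at 1, 2, 2 and 1 in NCD KO livers and 4, 2, 3 and 5 in NCD Ctrl livers. Of 4 tested genes on the list of other clock outputs, 3 were higher and 0 lower. They were Ciart, a transcriptional repressor of the clock (1.29 ± 0.19), Gys2, the liver glycogen synthase (0.84 ± 0.14), and Nampt, the rate-limiting enzyme of NAD salvage (0.81 ± 0.16). These 4 calls were kept without Ctrl replicate 4 and, for Per1 and Ciart, without the Ctrl-3 column. Leaving out any other NCD library ended them, at adjusted p-values of up to 0.109.

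On HFD, 0 of 5 core loop genes and 0 of 4 other outputs passed. The difference between the diets passed for Per1 (-1.72 ± 0.32, adjusted p = 0.00939) and for all 4 tested outputs: Ciart at -1.85 ± 0.31, Noct at -1.43 ± 0.33, Nampt at -1.28 ± 0.25 and Gys2 at -1.04 ± 0.24. Over all genes 7.88% passed in this difference, with 5.01% lower on HFD. Without NCD Ctrl replicate 3 the Noct (adjusted p = 0.0648) and Gys2 (0.0590) calls were lost, and the Gys2 call also without NCD KO replicate 4 (0.0543) and with no rescaling (0.0866). Among downstream genes, 1 of 10 tested PAR bZIP targets was called on NCD, near the 6.05% of all genes. This was Cyp2a5, a cytochrome P450 of xenobiotic metabolism, with a mean of 720 in KO livers and 287 in Ctrl livers (log2 change 1.36 ± 0.32, adjusted p = 0.0476, limma) and groups that overlapped. None of 5 tested metabolic targets of REV-ERB passed on NCD, with 0 of 4 on HFD. Of 6 tested REV-ERB corepressor genes 1 was called on NCD, Tbl1x, a subunit of the NCoR complex (0.58 ± 0.10, adjusted p = 0.0316), and 0 of 5 passed on HFD. In the difference between the diets 1 of 9 tested PAR bZIP targets and 1 of 5 corepressor genes were lower. The corepressor gene was Tbl1x (-0.55 ± 0.15, adjusted p = 0.0347, limma estimates), kept in 8 of 19 fits with 1 library left out. The Cyp2a5 call was lost with no filter (0.0750). With 1 NCD library left out, the NCD calls of Cyp2a5 and Tbl1x were kept only without Ctrl replicate 4, with adjusted p-values otherwise of up to 0.139.

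**Figure D2:**
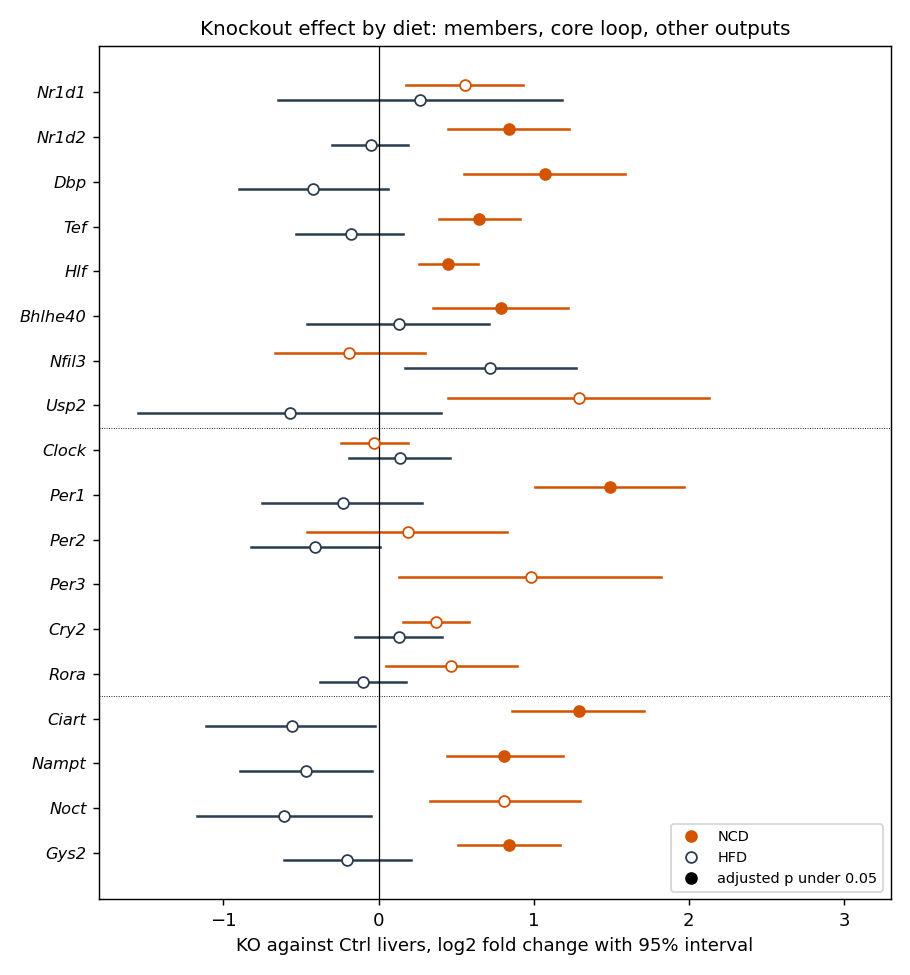
Log2 fold change of KO against Ctrl livers with its 95% interval (horizontal axis) on NCD (orange) and HFD (dark blue), for members (top), core loop genes (middle) and other clock outputs (bottom). Filled points passed an adjusted p of 0.05. All filled points are on NCD, with Per1 at 1.49 and Dbp at 1.07, and genes with 1 point missed the filter on HFD.

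Markers of the cell types a liver holds were summed per library. The 6 hepatocyte markers summed to 36227 to 50623 in NCD KO livers and 30414 to 39697 in NCD Ctrl livers, and 1 of the 6, Apob, was called (log2 change 0.51, adjusted p = 0.0459), a call kept in 1 of 8 fits with a library left out and lost with no filter (0.0601). The 5 macrophage markers summed to 56.8 to 79.5 in NCD KO and 71.4 to 131 in NCD Ctrl livers, and the 5 stellate markers to 73.8 to 100 in KO and 62.9 to 81.2 in Ctrl livers, with 0 called. On HFD the stellate sum was 20.5 to 29.6 in KO and 30.7 to 51.3 in Ctrl livers with 0 called, though 2 of 2 stellate markers tested were lower in the difference between diets. In bulk tissue fewer cells of a type and less RNA per cell cannot be told apart, and the part of these markers in the results was not tested.

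In the inducible AML12 cells 5 of the 9 members passed the filter on low values. The share of all genes whose groups did not overlap is given for the livers only. Separate groups of AML12 libraries are described without it and are not read as a result about the members. With doxycycline added, Bhlhe41 had the largest log2 change between the hairpin lines among the 5 tested members. Its deposited values were 8, 6 and 6 in shLinc and 14, 14 and 15 in shCtrl DoxPlus libraries. The groups lay far apart, with a log2 change of -1.01 ± 0.11 (adjusted p = 8.38e-07, limma). Its paralogue Bhlhe40 was modestly lower at 52, 56 and 51 in shLinc and 62, 59 and 62 in shCtrl (log2 change -0.20 ± 0.06, adjusted p = 0.00785), without overlap. Nfil3 was slightly higher at 33, 34 and 34 in shLinc and 32, 31 and 31 in shCtrl (0.10 ± 0.04, adjusted p = 0.0458). The Nfil3 call was lost when any library other than shCtrl DoxPlus replicate 1 was left out, at adjusted p-values of 0.0535 to 0.128, and with no rescaling. Of 9840 genes tested, 52.5% passed in DoxPlus (25.4% higher and 27.0% lower), so 3 called of 5 tested members, 1 higher and 2 lower, is near the background.

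Nr1d1 and Tef did not pass in DoxPlus. Nr1d1 was deposited at 8, 8 and 9 in shLinc and 7, 8 and 8 in shCtrl, with a 95% interval of -0.07 to 0.29 for the log2 change. Tef was at 6, 7 and 7 in shLinc and 7, 7 and 8 in shCtrl, with an interval of -0.28 to 0.05. Nr1d2, Dbp and Usp2 missed the filter at 1 to 4 in every DoxPlus library. Nr1d2 was at 2, 2 and 2 in shLinc and 3, 3 and 4 in shCtrl, without overlap, and in the fit without the filter, over 16583 genes, it was lower (log2 change -0.53 ± 0.17, adjusted p = 0.0251), while Dbp (0.508) and Usp2 (1.00) did not pass. Hlf was listed at 0 in all 18 inducible libraries.

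The lines already differed before doxycycline. In NoDox libraries 65.3% of genes passed (30.1% higher and 35.2% lower), and of 5 members tested 1 was higher and 3 lower. Nfil3 was at 17, 17 and 17 in shLinc and 27, 30 and 32 in shCtrl (log2 change -0.95 ± 0.04, adjusted p = 6.71e-12, limma). Bhlhe40 was at 84, 92 and 91 in shLinc and 109, 137 and 133 in shCtrl (-0.68 ± 0.06, adjusted p = 1.74e-08). Both repressors were lower in every shLinc library. Tef was at 15, 15 and 14 in shLinc and 7, 8 and 9 in shCtrl, the only tested member that was higher (0.63 ± 0.08, adjusted p = 2.04e-06). Nr1d1 was at 8, 7 and 7 in shLinc and 8, 10 and 10 in shCtrl (-0.47 ± 0.08, adjusted p = 1.09e-04), while Bhlhe41 was at 9, 11 and 9 in shLinc and 8, 9 and 9 in shCtrl (-0.03 ± 0.11, adjusted p = 0.802). The deposited values of Nr1d1 met between the lines at 1 library of each, and those of Bhlhe41 overlapped. Usp2 missed the filter over the whole table, yet was at 8, 7 and 9 in shLinc and 2, 2 and 2 in shCtrl. In the fit without the filter its log2 change was 1.42 ± 0.14 (adjusted p = 3.71e-07). Of the calls over all genes 46.1% were higher, against 67.6% with no rescaling, where the median shifted to 0.16, and the 4 called members kept their direction and call there.

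The hairpin difference itself changed with doxycycline for all 5 tested members, where 65.0% of all genes passed (34.1% higher and 30.9% lower). The DoxPlus difference minus the NoDox difference was 1.05 ± 0.06 for Nfil3 (adjusted p = 1.83e-10), 0.59 ± 0.12 for Nr1d1 (3.86e-04) and 0.49 ± 0.08 for Bhlhe40 (4.75e-05). It was -0.75 ± 0.11 for Tef (1.46e-05) and -0.98 ± 0.15 for Bhlhe41 (3.03e-05), all from limma. Of 6 tested core loop genes 0 were higher and 5 lower in the same contrast, led by Per2 at -1.40 ± 0.13, Clock at -1.08 ± 0.25 and Arntl at -1.04 ± 0.12. The share of higher calls was 52.4%, against 36.1% with no rescaling and a shifted median of -0.16.

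The DoxPlus and NoDox libraries were also compared within each line. In shLinc cells 74.2% of genes passed between DoxPlus and NoDox (38.8% higher and 35.5% lower), and Nfil3 rose by 1.15 ± 0.04 (adjusted p = 1.18e-13) and Nr1d1 by 0.35 ± 0.08 (adjusted p = 0.00115). Tef fell by 0.84 (SE 0.08, adjusted p = 2.87e-08), Bhlhe40 by 0.53 (SE 0.06) and Bhlhe41 by 0.29 (SE 0.11, adjusted p = 0.0233). The Bhlhe41 call was lost without NoDox replicate 2, DoxPlus replicate 2 or DoxPlus replicate 3, at adjusted p-values of 0.0966 to 0.115. Usp2 was at 1, 1 and 1 in DoxPlus and 8, 7 and 9 in NoDox shLinc libraries, and without the filter it fell by 2.00 (SE 0.14, adjusted p = 1.71e-09) and Dbp by 1.05 (SE 0.18, adjusted p = 9.48e-05). In shCtrl cells 66.5% passed (34.0% higher and 32.5% lower), and Bhlhe40 fell by 1.01 (SE 0.06, adjusted p = 1.02e-10), while Bhlhe41 rose by 0.69 ± 0.11 (adjusted p = 2.91e-05). Smaller shCtrl calls were those of Nr1d1 (-0.23 ± 0.08, adjusted p = 0.0224) and Nfil3 (0.10 ± 0.04, adjusted p = 0.0474). The Nr1d1 call was lost without NoDox replicate 2 or 3 or DoxPlus replicate 1, and the Nfil3 call without any library but NoDox replicate 3, at adjusted p-values of 0.0632 to 0.144. In shLinc cells 52.2% of calls were higher, against 36.0% with no rescaling, where the median shifted to -0.18 and Nr1d1 no longer passed (0.16 ± 0.09, adjusted p = 0.122).

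**Figure D3:**
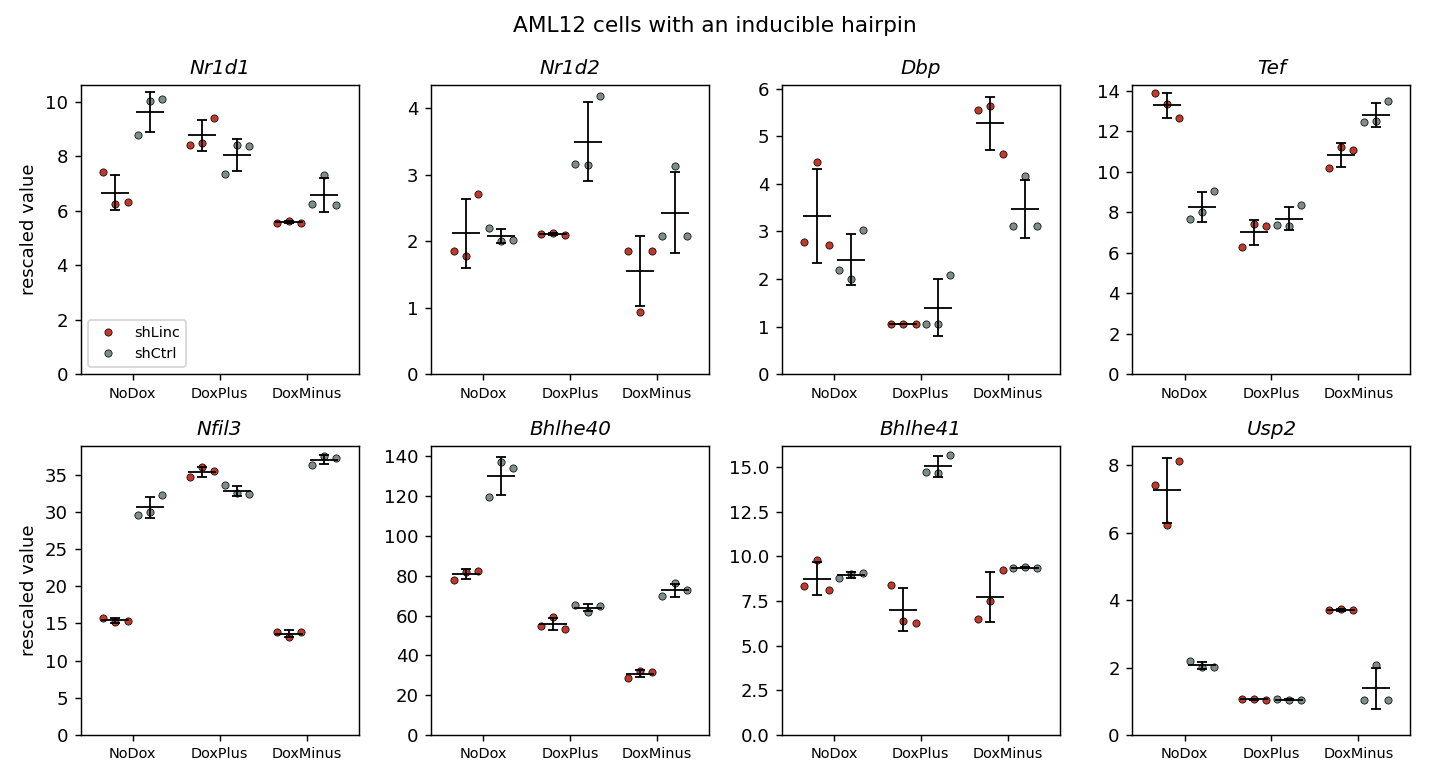
Rescaled values (vertical axes) of 8 members in shLinc (red) and shCtrl (grey) AML12 libraries in the NoDox, DoxPlus and DoxMinus states, with mean ± SD bars and n = 3 per group. Nfil3 in shLinc cells averages 15.4, 35.4 and 13.6 in NoDox, DoxPlus and DoxMinus, while shCtrl cells stay between 29.6 and 37.5.

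In the DoxMinus state Nfil3 and Bhlhe40 were lower in shLinc than in shCtrl cells, as in NoDox. Within shLinc cells Bhlhe40 averaged 80.65 in NoDox, 55.78 in DoxPlus and 30.68 in DoxMinus. Nfil3 was at 15, 14 and 15 in shLinc and 35, 36 and 36 in shCtrl, a log2 change of -1.38 ± 0.04 (adjusted p = 7.02e-14, limma). Bhlhe40 was at 31, 34 and 34 in shLinc and 67, 73 and 70 in shCtrl, with a log2 change of -1.22 ± 0.06 (adjusted p = 1.23e-11). For both genes the hairpin groups were far apart. Of 5 members tested 0 were higher and 4 lower, where 57.9% of all genes passed (25.7% higher and 32.3% lower). Of all calls 44.3% were higher, against 67.2% with no rescaling and a shifted median of 0.13. Tef (-0.22 ± 0.08, adjusted p = 0.0210) and Nr1d1 (-0.20 ± 0.08, adjusted p = 0.0495) were the other calls. Their deposited values were close, with Tef at 11 to 12 in shLinc and 12 to 13 in shCtrl. Nr1d1 was deposited at 6 in every shLinc library and at 6 to 7 in shCtrl. With no rescaling Tef and Nr1d1 stood at -0.07 ± 0.09 and -0.06 ± 0.09 and did not pass. The Tef call was also lost without shCtrl replicate 3 or shLinc replicate 1, and the Nr1d1 call without shCtrl replicate 2 or any 1 shLinc replicate. Bhlhe41 missed the threshold (-0.26 ± 0.11, adjusted p = 0.0531) and passed without shLinc replicate 3, at an adjusted p of 0.00666. Usp2 was at 4, 4 and 4 in shLinc and 1, 2 and 1 in shCtrl, and Dbp at 6, 6 and 5 in shLinc and 3, 4 and 3 in shCtrl, both below the filter. Without the filter both were called, Usp2 at 1.01 ± 0.14 (adjusted p = 2.13e-05) and Dbp at 0.49 ± 0.18 (adjusted p = 0.0419), and Nr1d2 was not (-0.44 ± 0.17, adjusted p = 0.0542).

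Between DoxMinus and DoxPlus, 72.2% of genes passed in shLinc cells (34.1% higher and 38.1% lower) and 73.8% in shCtrl cells (39.6% higher and 34.2% lower). Nfil3 fell by 1.32 (SE 0.04), Bhlhe40 by 0.84 (SE 0.06) and Nr1d1 by 0.57 (SE 0.08) in shLinc cells, and Tef rose by 0.57 ± 0.08. The share of higher calls there was 47.2%, against 62.6% with no rescaling and a shifted median of 0.14. In shCtrl cells Tef rose by 0.67 ± 0.08 and Bhlhe41 fell by 0.63 (SE 0.11), with smaller steps of 0.17 ± 0.04 for Nfil3, 0.18 ± 0.06 for Bhlhe40 and -0.25 ± 0.08 for Nr1d1. Adjusted p-values for these calls ran from 3.06e-14 for Nfil3 in shLinc cells to 0.0119 for Nr1d1 in shCtrl cells (limma).

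**Figure D4:**
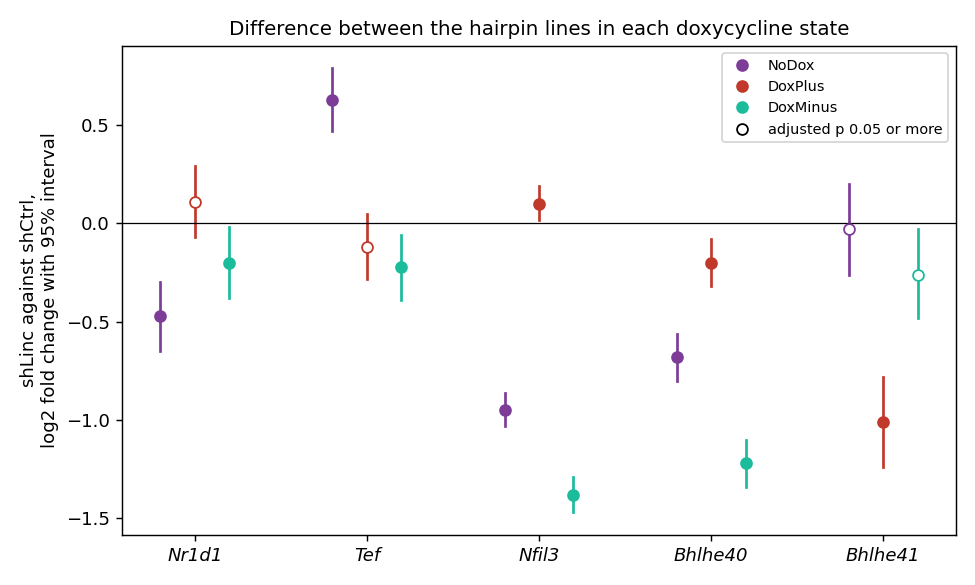
Log2 fold change of shLinc against shCtrl cells with its 95% interval (vertical axis) for the 5 tested members, in NoDox (purple), DoxPlus (red) and DoxMinus (green). Open points did not pass. Nfil3 lies at -0.95, 0.10 and -1.38 in the 3 states, and Bhlhe41 is apart from 0 in DoxPlus at -1.01.

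The sum of the hepatocyte markers differed by hairpin and state in the same cells, which not every marker followed. Of 4 tested, 3 were higher and 1 lower in shLinc than in shCtrl in NoDox. In DoxPlus 0 were higher and 4 lower, and in DoxMinus 2 were higher and 0 lower. The 6 markers summed to 1200 to 1248 in shLinc and 539 to 573 in shCtrl NoDox libraries, to 465 to 476 in shLinc and 788 to 808 in shCtrl DoxPlus libraries, and to 1378 to 1416 in shLinc and 644 to 659 in shCtrl DoxMinus libraries. The 4 cholangiocyte markers summed to 1158 to 1177 in shLinc and 1154 to 1282 in shCtrl NoDox libraries, to 920 to 940 in shLinc and 1132 to 1148 in shCtrl DoxPlus libraries, and to 936 to 951 in shLinc and 1340 to 1344 in shCtrl DoxMinus libraries. Of 3 of them tested, 2 were higher and 1 lower in shLinc in DoxPlus, and 1 was higher and 2 lower in DoxMinus. The 5 endothelial and 3 lymphocyte markers were at 0 in all 18 libraries. The part of these shifts in the members' values was not tested.

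With conventional hairpins, Tef was the member called higher in shFalcor than in shCtrl cells. It was at 182, 172 and 185 CPM in shFalcor and 88.3, 82.1 and 94.9 CPM in shCtrl cells, without overlap (log2 change 1.02 ± 0.07, adjusted p = 2.11e-09, edgeR). Bhlhe40 fell, at 249, 263 and 295 CPM in shFalcor and 366, 390 and 320 CPM in shCtrl cells (-0.41 ± 0.08, adjusted p = 1.93e-04). Usp2 fell, at 17.8, 18.6 and 20.7 CPM in shFalcor and 25.6, 28.9 and 22.3 CPM in shCtrl cells (-0.42 ± 0.14, adjusted p = 0.0178). The shFalcor and shCtrl groups did not overlap for these genes, again without a share over all genes. The Usp2 call was lost without shCtrl replicate 2 or shFalcor replicate 1 or 2 (adjusted p of 0.0520 to 0.0903), with DESeq2 (0.0678) and with no TMM scaling (-0.27 ± 0.14, adjusted p = 0.115). Of 11871 genes tested, 51.5% passed (25.5% higher and 26.0% lower), and of 8 members tested 1 was higher and 2 lower. The share of higher calls was 49.5%, against 62.5% with no TMM scaling, where the median shifted to 0.14.

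The other members did not pass on Falcor knockdown in the reported fit. Nr1d2 was at 21.5, 17.4 and 22.2 CPM in shFalcor and 28.0, 28.2 and 28.2 CPM in shCtrl cells, with no overlap and an adjusted p of 0.0504 (log2 change -0.46 ± 0.19). It passed with no filter on low counts (0.0306) and with only the compared groups fitted (0.00758), and had an adjusted p of 0.0588 to 0.191 under the other 9 alternatives. Intervals for the log2 change were -0.17 to 0.13 for Nr1d1, -0.67 to 0.11 for Dbp, -0.25 to 0.22 for Nfil3 and -0.23 to 0.58 for Bhlhe41. Hlf had 1 read in 1 shCtrl library and 0 in the other 8. The intervals for Nr1d1, Dbp, Nfil3 and Bhlhe41 each exclude a change of the size that Tef showed.

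Dbp and Nr1d2 fell in cells with knockdown of Zc3h11a, which encodes a zinc finger protein linked to mRNA export. Dbp was at 9.19, 6.18 and 6.18 CPM in shZC3H11A and 21.9, 16.7 and 19.7 CPM in shCtrl cells (log2 change -1.41 ± 0.20, adjusted p = 1.50e-05, edgeR). Nr1d2 was at 16.3, 12.1 and 7.63 CPM in shZC3H11A and 28.0, 28.2 and 28.2 CPM in shCtrl cells (-1.20 ± 0.20, adjusted p = 8.21e-05). Both genes were lower in every knockdown library. Bhlhe41 was at 17.5, 20.5 and 8.90 CPM in shZC3H11A and 25.0, 28.2 and 27.5 CPM in shCtrl cells (-0.78 ± 0.20, adjusted p = 0.00500). Bhlhe40 was at 260, 273 and 259 CPM in shZC3H11A and 366, 390 and 320 CPM in shCtrl cells (-0.44 ± 0.08, adjusted p = 1.08e-04). Tef rose slightly, at 106, 99.6 and 106 CPM in shZC3H11A and 88.3, 82.1 and 94.9 CPM in shCtrl cells (0.23 ± 0.07, adjusted p = 0.0146), a call lost without shCtrl replicate 1 (0.0521) or 2 (0.0757). The groups of each of these genes lay apart, again without a share over all genes. Of 8 members tested 1 was higher and 4 lower, where 48.5% of all genes passed (24.2% higher and 24.3% lower). Nr1d1, Nfil3 and Usp2 did not pass, although Nr1d1 did so without shCtrl replicate 3 (-0.19, adjusted p = 0.0383).

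Set directly against each other, shFalcor cells had more Dbp (log2 difference 1.13 ± 0.21), Bhlhe41 (0.96 ± 0.20), Tef (0.79 ± 0.07) and Nr1d2 (0.75 ± 0.20) than shZC3H11A cells, and less Usp2 (-0.36 ± 0.14, adjusted p = 0.0391, edgeR). The 4 higher calls had adjusted p-values between 3.62e-08 and 0.00459. Falcor itself, low in both, did not pass between them (0.10 ± 0.62, adjusted p = 0.904, edgeR). In this comparison 56.9% of all genes passed (28.4% higher and 28.6% lower), 49.8% of them higher, against 61.3% with no TMM scaling and a shifted median of 0.15. The Usp2 call was lost with DESeq2 (0.119), with no TMM scaling (0.252), and without shFalcor replicate 1 or 2 or shZC3H11A replicate 1 or 3 (0.0754 to 0.127). Nr1d1, called in no comparison of this set in the reported fit, passed here with no TMM scaling (0.27 ± 0.08, adjusted p = 0.00577).

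Core loop genes were called in both directions in the same cells, at shares near those of all genes. In all, 4 of 7 tested core loop genes passed in shFalcor (1 higher, 3 lower), where 51.5% of all genes did, and 3 of 7 in shZC3H11A cells (2 higher, 1 lower), where 48.5% did. Arntl, the REV-ERB target, was higher by 0.90 ± 0.13 in shFalcor and by 1.12 ± 0.13 in shZC3H11A cells, each against the shared shCtrl libraries. Per2 fell by 1.10 (SE 0.12) and Clock by 0.65 (SE 0.14) in shFalcor cells. Cry1 fell by 0.86 (SE 0.22, adjusted p = 0.00352, edgeR) in shFalcor cells, a call kept with each of the 6 libraries left out, and by 0.55 (SE 0.22, adjusted p = 0.0462) in shZC3H11A cells. The shZC3H11A call of Cry1 was lost with DESeq2 (adjusted p = 0.128), with no filter (0.0963), with the replicate block (0.0592), and without shZC3H11A replicate 2 or 3 or any 1 shCtrl library (0.0561 to 0.182). The hepatocyte markers summed to 118 to 141 CPM in shFalcor, 499 to 635 in shZC3H11A and 390 to 447 in shCtrl cells. Of 5 tested against shCtrl, 0 were higher and 5 lower in shFalcor cells, and 3 were higher and 2 lower in shZC3H11A cells. The 5 macrophage markers summed to 47.9 to 50.6 CPM in shFalcor, 5.09 to 8.83 in shZC3H11A and 3.44 to 5.21 in shCtrl cells, almost all of it Cd68, with 3 of the 5 at 0 in every shFalcor library. The part of these markers in the members' values was not tested.

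**Figure D5:**
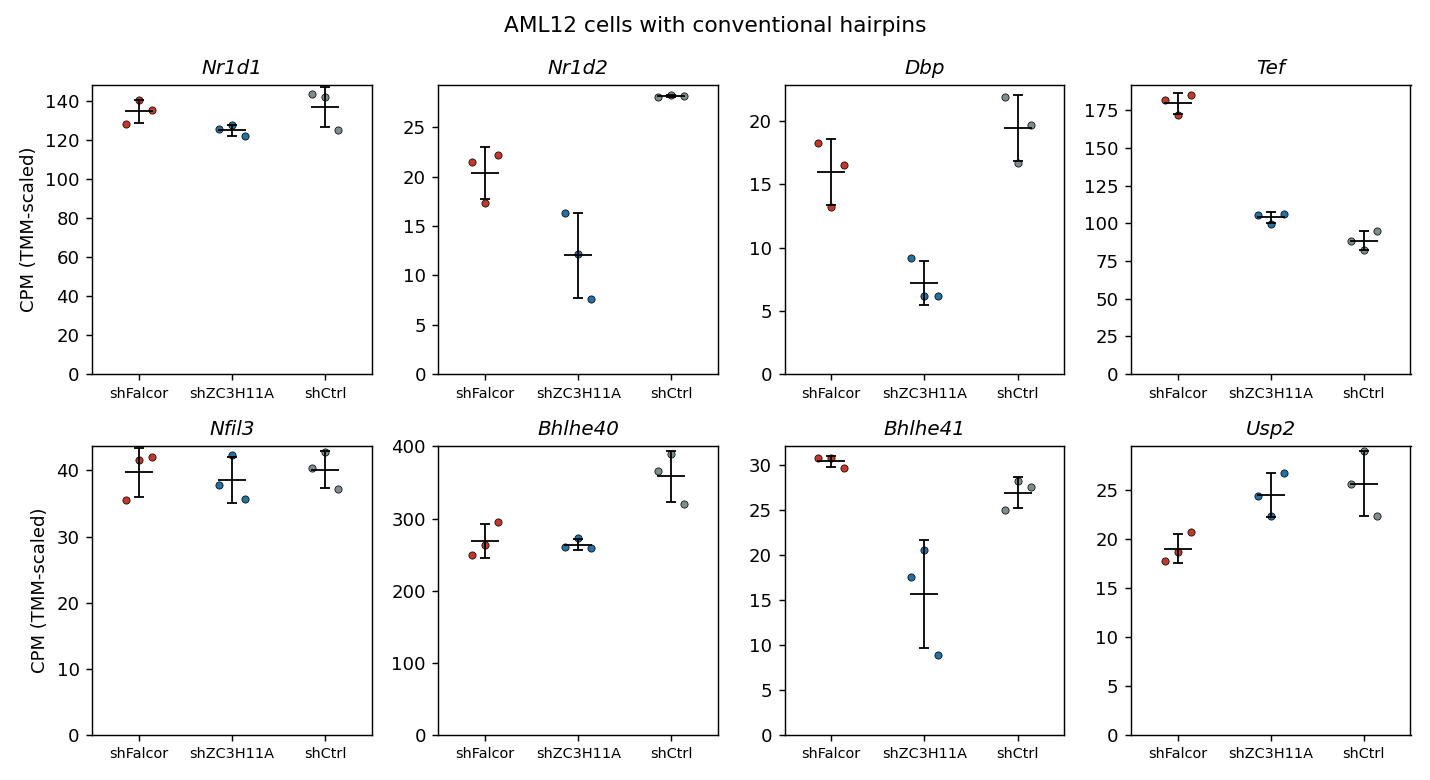
CPM values with TMM scaling (vertical axes) of 8 members in shFalcor (red), shZC3H11A (blue) and shCtrl (grey) AML12 libraries, with mean ± SD bars and n = 3 per group. Tef averages 180 CPM in shFalcor, 104 in shZC3H11A and 88.5 in shCtrl cells, and Dbp averages 15.96 in shFalcor, 7.18 in shZC3H11A and 19.4 in shCtrl cells.

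The genes most like Dbp and Nr1d1 were ranked by Pearson correlation. Over the 19 livers with each group's mean subtracted, Tef was the gene most like Dbp of 5863 (Pearson r = 0.82), followed by Tm9sf3 (0.79), A430005L14Rik (0.75), Shpk (0.72) and Nucb1 (0.72). The genes most like Nr1d1 there were Apol7a (0.85), Bhlhe40 (0.82), Galt (0.82), Crot (0.81) and Rabggtb (0.80). By Spearman correlation A430005L14Rik (0.82) was ahead of Tef (0.81) for Dbp, and Bhlhe40 stood at 0.70 for Nr1d1. Over the 18 inducible libraries, not centred, Nr1d1 was most like Gm46223 (0.92), Scarb2 (0.91), Itgb6 (0.91), Stip1 (0.90) and Ctsc (0.90) among 9840 genes, while Dbp missed the filter. These are descriptions over points that share tables, groups and scaling.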

How the data were processed

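The 3 deposited score tables (inducible, NCD, HFD) hold whole-number scores whose column totals are alike, and replicate values vary less than read counts would; they are treated as normalized scores rounded by the authors, with no read depth left. The deposited conventional hairpin table holds raw read counts per gene. Per the submitters' processing notes kallisto, DESeq2 and mm10 were used, with no versions or roles; no source used here gives the other steps. Scores were divided by a TMM factor, and log2(value + 1) of genes with a mean rescaled value of at least 3 was fitted with limma 3.58.1 (trend, robust). Counts were filtered, TMM-scaled and tested with edgeR 4.0.16 quasi-likelihood in R 4.3.3, with DESeq2 1.42.0 as an alternative. P-values were Benjamini-Hochberg adjusted over all genes tested, with a threshold of 0.05. The tests were checked on simulated data. The diet contrast subtracts the separate fits, with Welch-Satterthwaite degrees of freedom. No pair of columns within a table was identical. In the livers 4 control columns could be assigned to a group but not to a numbered replicate and are named by column. The members and lists were chosen with earlier results of these data known. All 9 members are named, and listed genes that passed or belong to the core loop could be named; 1 listed gene is not reported here. For Nr1d1 and Dbp the 5 genes of highest Pearson correlation are named. Alternatives changed the pseudocount, filter, scaling, tool, block and libraries.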

Additional observations from a re-analysis of the deposited data

Results flagged for a closer look

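Among 30 sets of 4 to 6 livers (1 member in 1 group), 3 had a library far from the others by Dixon's criterion, which chance gives in about 1 set in 20. Nr1d1 stood at 45.5 in the NCD Ctrl liver of column Ctrl-2, against 29.8 to 32.5 in the other NCD Ctrl livers. In HFD KO replicate 5, Nr1d2 stood at 13.8, against 9.12 to 10.8 in the other HFD KO livers, and Dbp at 30.8, against 12.2 to 18.4.

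The knockout effect differed between diets for Dbp (-1.49), Nr1d2 (-0.89) and Tef (-0.83), HFD minus NCD on the log2 scale, by the test of the difference. Over all genes 7.88% passed there, and 0 to 4 members were called with 1 library left out. Diet and table cannot be told apart in this difference. The hairpin effect differed between DoxPlus and NoDox for Nfil3 (1.05), Nr1d1 (0.59), Bhlhe40 (0.49), Tef (-0.75) and Bhlhe41 (-0.98), again by the test of the difference itself. Of all genes 65.0% passed that test, so such a call was common.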

How the results depend on the processing

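Over 86 member results, 1164 alternatives were run: 1047 left the call as reported, 101 lost the call, 16 gained one and 0 reversed a call. Among the 1047 were 14 in which a value that was not called changed sign. The 5 members called on NCD became 3 with no filter on low values. With a mean rescaled value of at least 10, only 2 members could be tested in the inducible table, and 2 were called in NoDox, DoxMinus, both DoxPlus against NoDox contrasts, both DoxMinus against DoxPlus contrasts and the change of the hairpin difference. With no rescaling 2 were called in DoxMinus, and with only the compared groups fitted 2 in shCtrl DoxPlus against NoDox. Counts over all genes that moved by over 1.5 times were 1746 with no rescaling on NCD, against 570, and on HFD 29 with no rescaling, 21 with scaling that ignored the repeated rows, 12 with no filter and 0 at the higher filter, against 3. The diet difference gave 51 with no rescaling, 230 with no filter and 701 with scaling that ignored the repeated rows, against 462, and 63 to 1166 with 1 library left out. Cry1, a core loop gene, turned from -0.15 to 0.00 in DoxMinus with no rescaling, and to 0.05 in shLinc DoxMinus against DoxPlus.

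Leaving out 1 library at a time gave 0 to 4 members on NCD, 0 to 0 on HFD, 0 to 4 for the diet difference, 2 to 3 in DoxPlus, 4 to 4 in NoDox, 2 to 4 in DoxMinus, 2 to 3 in shCtrl DoxPlus against NoDox, 4 to 5 in shLinc, 5 to 5 and 4 to 5 in shCtrl and shLinc DoxMinus against DoxPlus, and 5 to 5 for the change of the hairpin difference. The conventional hairpins gave 2 to 3 for shFalcor, 4 to 6 for shZC3H11A and 4 to 5 between them.

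Same-numbered libraries deviated together by correlations of -0.11 to 0.14, in no comparison over 0.1 for every pair, so the numbers were not taken as pairs. With a replicate block the members called were 2 in DoxPlus, 4 in NoDox, 3 in DoxMinus, 3 and 5 in shCtrl and shLinc DoxPlus against NoDox, 5 and 4 in shCtrl and shLinc DoxMinus against DoxPlus, 5 for the change of the hairpin difference, 3 for shFalcor, 5 for shZC3H11A and 4 between them. The livers were not analysed as pairs, since no label links a KO liver to a Ctrl liver. In addition, 4 control columns carry no replicate number. The causes of these changes were not tested. Whole-number scores limit Hlf, Bhlhe41, Dbp, Nr1d2 and Usp2 where they sit at 1 to 5, and 3 inducible libraries a group limit every interval. They also limit the DoxMinus calls of Nr1d1, deposited at 6 to 7, and Tef, deposited at 11 to 13.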
